A study of Homo sapiens with 3 samples.

Results

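The promoters of the genes encoding the Mediator complex were examined for peaks of the nuclear protein Strawberry Notch 1 (SBNO1), of TAF4, which is part of the general transcription factor TFIID, and of control immunoglobulin (IgG). The peaks came from chromatin immunoprecipitation followed by sequencing in HuCCT1 cells, a human line derived from cholangiocarcinoma (bile duct cancer), and the labels name no treatment or genetic change. The members were the 33 genes for Mediator subunits and for its kinase module among 19689 protein-coding genes: 11 genes of the head, 9 of the middle, 5 of the tail, 7 of the kinase module and the scaffold gene MED14. A peak was assigned to a gene when its nearest edge lay within 1 kb of any transcription start site (TSS) of a protein-coding transcript in GENCODE 44, and every gene in reach was counted. Each antibody had 1 peak list, made from pooled biological replicates, so there was no replicate error and no difference was tested. The lists held 16147 SBNO1, 12763 TAF4 and 1598 IgG peaks. The number of reads behind a peak is unknown.

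Mediator is a large assembly that connects transcription factors bound at enhancers with RNA polymerase II and the general transcription factors at promoters. The head and middle modules contact the polymerase and the pre-initiation complex, while the tail receives many activators, and MED14 runs through all of them as a scaffold. The kinase module, built from CDK8 or CDK19, cyclin C (CCNC), MED12 or MED12L and MED13 or MED13L, binds reversibly and hinders the contact with the polymerase. The place of MED27 to MED30, counted here with the head, differs between descriptions of the complex. TAF4 belongs to TFIID, which contains the TATA-box binding protein and recognises core promoters.

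To show what lies under these peaks, the sequence upstream of the transcribed region is given for 8 members, chosen after their peaks were seen. All are RefSeq promoter sequences of GRCh38.p14, read 5′ to 3′ on the strand of the gene, and 25 of the 33 members had an entry in the RefSeq promoter table. MED18 (chr1:28328817-28329001, plus strand), MED17 (chr11:93784093-93784226, plus) and MED27 (chr9:132079868-132080117, minus) stand for head genes with overlapping SBNO1 and TAF4 peaks. MED19 (chr11:57712222-57712465, minus) was the member that also had an IgG peak. MED10 (chr5:6378572-6378673, minus) had an SBNO1 peak without TAF4. MED26 (chr19:16628205-16628454, minus) and CDK8 (chr13:26253879-26254103, plus) had a TAF4 peak without SBNO1, and MED13L (chr12:116277694-116277943, minus) had neither. For each gene, the longest run free of annotated exons was taken from the 250 bases before the RefSeq start site, and where the gene had a peak the run was cut to bases inside its SBNO1 and TAF4 promoter peaks. The position of these stretches inside the peaks was therefore fixed by the choice. Capitals mark exact matches on either strand to the 10 short consensus sequences that were searched, with overlapping matches running together. They are named after the factors or elements they are known for. ETS family factors were represented by CCGGAA, and the family of SP and KLF factors (SP/KLF) by GGGCGG. The trimeric factor NFY was represented by CCAAT, the respiratory gene factor NRF1 by GCGCATGC, the zinc finger protein YY1 by ATGGCGGC and the cyclic AMP response element (CRE) by TGACGTCA. The E-box bound by helix-loop-helix factors such as MYC was searched as CACGTG, and the element of FOS and JUN dimers (AP-1) as TGANTCA. The zinc finger protein ZNF143 was represented by ACTACAAT, and the TATA element of core promoters by the letters TATAAA.
MED18: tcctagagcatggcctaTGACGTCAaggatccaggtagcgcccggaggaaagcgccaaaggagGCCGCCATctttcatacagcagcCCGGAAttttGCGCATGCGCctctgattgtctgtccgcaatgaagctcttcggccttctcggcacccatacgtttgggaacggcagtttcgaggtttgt
MED17: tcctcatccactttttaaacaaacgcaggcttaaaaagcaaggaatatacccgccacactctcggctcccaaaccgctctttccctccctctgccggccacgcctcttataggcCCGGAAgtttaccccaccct
MED27: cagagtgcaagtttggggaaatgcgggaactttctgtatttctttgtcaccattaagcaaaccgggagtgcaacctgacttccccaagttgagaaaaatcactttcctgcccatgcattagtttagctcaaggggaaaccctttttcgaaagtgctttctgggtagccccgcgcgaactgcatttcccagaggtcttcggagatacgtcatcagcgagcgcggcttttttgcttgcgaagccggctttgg
MED19: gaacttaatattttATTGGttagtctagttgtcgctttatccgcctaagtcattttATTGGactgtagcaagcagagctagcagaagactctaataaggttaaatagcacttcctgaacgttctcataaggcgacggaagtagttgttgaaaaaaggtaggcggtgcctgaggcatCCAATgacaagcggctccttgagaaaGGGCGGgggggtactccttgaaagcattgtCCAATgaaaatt
MED10: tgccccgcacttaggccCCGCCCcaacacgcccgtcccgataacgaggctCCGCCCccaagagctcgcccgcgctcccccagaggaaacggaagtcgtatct
MED26: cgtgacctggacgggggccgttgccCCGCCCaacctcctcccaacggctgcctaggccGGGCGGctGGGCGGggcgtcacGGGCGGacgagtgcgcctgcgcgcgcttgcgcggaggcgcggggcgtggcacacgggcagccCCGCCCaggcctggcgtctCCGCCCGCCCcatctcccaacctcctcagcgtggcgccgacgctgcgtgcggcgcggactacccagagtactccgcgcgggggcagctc
CDK8: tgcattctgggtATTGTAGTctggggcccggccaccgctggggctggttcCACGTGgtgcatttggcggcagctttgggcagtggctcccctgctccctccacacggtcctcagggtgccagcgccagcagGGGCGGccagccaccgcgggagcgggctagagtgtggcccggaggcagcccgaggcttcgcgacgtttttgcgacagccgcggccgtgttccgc
MED13L: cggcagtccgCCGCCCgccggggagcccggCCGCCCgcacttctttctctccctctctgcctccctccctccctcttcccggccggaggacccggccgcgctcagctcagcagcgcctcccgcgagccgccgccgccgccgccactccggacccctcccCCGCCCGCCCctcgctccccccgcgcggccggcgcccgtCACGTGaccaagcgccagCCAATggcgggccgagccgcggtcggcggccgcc

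The stretch of MED18 held 1 match each to the CRE, YY1 and ETS consensus and 2 overlapping matches to that of NRF1. Over the full 250 upstream bases of 15307 promoters, which are as long as or longer than the stretches shown, YY1 was matched in 1.50%, CRE in 2.36% and NRF1 in 3.71%. An ETS match, found in 19.6% of these promoters, was also present in MED17. In MED19 there were 4 NFY matches, and at least 1 was found in 34.7% of promoters. The MED26 stretch, with 78.0% G and C, held 7 SP/KLF matches, of which 2 overlapped. At least 1 SP/KLF match was found in 56.7% of promoters. The shares of promoters with as many matches as MED19 or MED26 were not counted. CDK8 held a ZNF143 match (0.686% of promoters) beside an E-box (7.86%) and an SP/KLF match. MED27 held none of the 10. Without any peak, MED13L had 81.2% G and C in its stretch and held 4 SP/KLF matches, 1 E-box and 1 NFY match. A match is a description of the letters and no evidence of binding.

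First, the members with a promoter peak were counted. An SBNO1 peak was found at 20 of 33 members (60.6%), compared with 25.7% of all protein-coding genes. A TAF4 peak was found at 23 members (69.7%), compared with 31.9%. In the IgG list, which measures the background of the procedure, 1 member had a peak (3.03%), compared with 1.41%. Both SBNO1 and TAF4 peaks were present at 18 members (54.5%), beside 22.6% of all genes. SBNO1 without TAF4 was seen at MED10 and MED13, 2 members (6.06%), beside 3.08%. TAF4 without SBNO1 was seen at MED30, MED26, MED25, CDK8 and CDK19, 5 members (15.2%), beside 9.29%. The remaining 8 members (24.2%) had neither, beside 65.0% of all genes: MED8, MED9, MED15, MED16, MED12, MED12L, MED13L and MED14. All protein-coding genes include silent genes, and expression was not analysed here. Over all protein-coding genes, 5057 had an SBNO1 and 6280 a TAF4 promoter peak. Of the listed peaks, 4791 of 16147 for SBNO1 and 6042 of 12763 for TAF4 were promoter peaks. The study reports far fewer bound promoters for either protein and a larger share of peaks near a TSS. The genes counted here are therefore not its set of bound promoters. The reason for the difference was not tested.

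The peaks were distributed unevenly over the modules. Of the 20 head and middle genes, 16 had an SBNO1 peak (80.0%) and 17 a TAF4 peak (85.0%). Of the 13 genes of the tail, kinase module and scaffold, 4 had an SBNO1 peak (30.8%) and 6 a TAF4 peak (46.2%). Over all protein-coding genes the shares were 25.7% and 31.9%, so the SBNO1 share of this second group was near that of all genes. The split between these groups was made after the counts were seen, and the difference was not tested. When MED27 to MED30 were counted with the tail and MED14 with the middle, the tail held 5 of 9 genes with SBNO1 and 7 of 9 with TAF4, and the head 6 of 7 with each. Restricting the lists to peaks with a score at or above the median of their list left 13 members with SBNO1, 13 with TAF4 and 6 with both, beside 13.1%, 19.6% and 9.21% of all genes. The 7 members that lost SBNO1 were MED6, MED20, MED27, MED28 and MED29 of the head, MED24 and CCNC. The 10 that lost TAF4 were MED11, MED17, MED18, MED27, MED28 and MED30 of the head, MED31, MED23, MED25 and CDK8. In the head, MED22 alone kept both. The limit also lowered the shares of all genes, from 25.7% to 13.1% for SBNO1 and from 31.9% to 19.6% for TAF4. For both peaks it fell from 22.6% to 9.21%. The counts of the head without a score limit thus include peaks with lower scores, as do those of all genes.

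**Figure D1:**
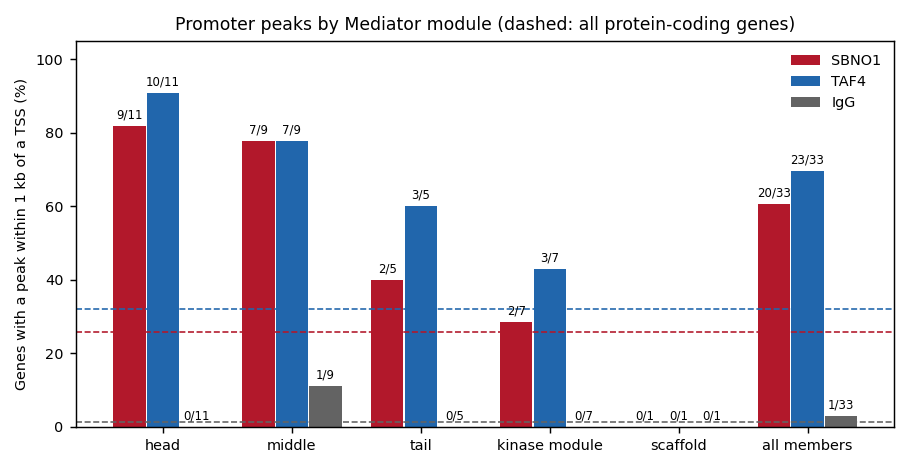
Share of the genes of each Mediator module with an SBNO1, TAF4 or IgG peak within 1 kb of a TSS (y axis, percent), with the number of genes above each bar, and dashed lines at the shares of all protein-coding genes (25.7%, 31.9% and 1.41%). Without a score limit, the head (9 of 11 SBNO1, 10 of 11 TAF4) and the middle (7 of 9 each) stand higher. The tail (2 of 5, 3 of 5) and the kinase module (2 of 7, 3 of 7) stand lower than these. Their SBNO1 and TAF4 shares are above the dashed lines.

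In the head, 9 of 11 genes had both peaks: MED6, MED11, MED17, MED18, MED20, MED22, MED27, MED28 and MED29. MED17 is a central architectural subunit of the head, and MED18 and MED20 form a heterodimer that projects from it. The SBNO1 peak of MED18 (chr1:28328817-28329099) and the TAF4 peak (chr1:28328816-28329213) began 1 bp apart. MED28 had the widest SBNO1 peak of all members, 1273 bp (chr4:17614008-17615280), which was wider than 99.4% of SBNO1 promoter peaks but had the lowest score among the members, 403. Its TAF4 peak of 680 bp lay entirely inside it. The next widest SBNO1 peak was that of MED29, with 730 bp, around its TAF4 peak of 550 bp. At MED20 the TAF4 peak, with 665 bp, was the third widest of the members and enclosed an SBNO1 peak of 471 bp. MED11 differed from the others in that its 2 peaks did not overlap. The SBNO1 peak (chr17:4731314-4731488, 175 bp, score 1000) covered the TSS, and the TAF4 peak (chr17:4731625-4731895, 271 bp, score 744) lay in an intron 194 bp downstream of the TSS, with 136 bp between them. MED30 had a TAF4 peak of 485 bp over its TSS (score 732), while the nearest SBNO1 peak was 121546 bp away. MED8, which joins the MED18 and MED20 pair to the head, had no promoter peak, with an SBNO1 peak 16456 bp and a TAF4 peak 30823 bp from the nearest TSS. No head gene had an IgG promoter peak. The nearest IgG peak to any member but MED19 was 17983 bp from a TSS of MED29.

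In the middle, MED1, MED4, MED7, MED19, MED21 and MED31 had both peaks. MED1 is the subunit that binds nuclear receptors, and MED7 and MED21 form the hinge of the module. MED1 had the third widest SBNO1 peak (chr17:39450983-39451536, 554 bp), centred on the first exon, with a TAF4 peak of 449 bp inside it, both at a score of 1000. At MED4 and MED7 all peaks were narrow, between 250 and 269 bp. MED19 had the widest TAF4 peak of the members, 962 bp (chr11:57711904-57712865, score 1000), and was the only member with 2 SBNO1 peaks, of 525 bp over the TSS (score 1000) and of 253 bp in an intron 178 bp downstream (score 917). It was also the only member with an IgG peak (chr11:57712266-57712606, 341 bp, score 629), which began 51 bp upstream of the TSS and overlapped the TAF4 peak and the wider SBNO1 peak. When peaks overlapping IgG were removed, MED19 kept an SBNO1 peak, the narrower of the 2, and lost its TAF4 peak. The part of the background in the MED19 peaks was not tested. MED10 had an SBNO1 peak of 266 bp over its TSS (chr5:6378471-6378736, score 934), and the nearest TAF4 peak was 219005 bp away. MED26, which takes part in Mediator forms that lack the kinase module and recruits elongation factors, had a TAF4 peak of 327 bp (chr19:16628160-16628486, score 1000), and the nearest SBNO1 peak was 14828 bp from a TSS. MED9 had no promoter peak, and the nearest SBNO1 and TAF4 peaks lay 30188 and 30416 bp upstream.

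In the tail, MED23 and MED24 had both peaks. MED23, a target of ELK1 and of the adenoviral E1A protein, had an SBNO1 peak of 242 bp (score 1000) that overlapped 213 bp of a TAF4 peak of 361 bp (score 623). At MED24 the peaks of 372 and 386 bp began at the same base. MED25, the target of the viral activator VP16, had a TAF4 peak (chr19:49817343-49817732, 390 bp, score 629) 557 bp upstream of its TSS and no SBNO1 peak nearer than 4479 bp. MED15, the subunit bound by SREBP, had a TAF4 peak in an intron 1402 bp downstream of a TSS (score 470) and an SBNO1 peak 17767 bp downstream. MED16 had overlapping peaks in an intron, SBNO1 at 1783 bp (score 1000) and TAF4 at 1773 bp (score 760) from the nearest TSS. With a limit of 3 kb, MED16 gained both calls and MED15 the TAF4 call. No tail gene had an IgG peak.

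In the kinase module, CCNC alone had both peaks, an SBNO1 peak of 384 bp (score 762) around a TAF4 peak of 266 bp (score 1000). The 3 pairs of paralogs were compared next. CDK8 and CDK19, which encode the alternative kinases, both had a TAF4 peak over a TSS (379 bp with score 657, and 363 bp with score 939) and no SBNO1 peak nearer than 62974 and 58908 bp, respectively. MED13 had an SBNO1 peak of 211 bp (chr17:62065875-62066085, score 1000) 597 bp upstream of its TSS, and its nearest TAF4 peak was 101912 bp away. Its paralog MED13L had no SBNO1 peak nearer than 135262 bp and no TAF4 peak nearer than 177278 bp. Neither MED12 nor MED12L had a promoter peak. The nearest peaks of MED12, on the X chromosome, were 227995 bp (SBNO1) and 145669 bp (TAF4) away. MED12L held 4 SBNO1 peaks and 1 TAF4 peak inside the gene, the nearest 113952 and 114172 bp from a TSS. The scaffold gene MED14, also on the X chromosome, had its nearest SBNO1 peak at 798670 bp and its nearest TAF4 peak at 348742 bp. On this chromosome 10.9% of all genes had an SBNO1 and 17.4% a TAF4 peak. When each member was given the share of its own chromosome, the means were 27.0% for SBNO1 and 32.7% for TAF4. No kinase module gene had an IgG peak.

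**Figure D2:**
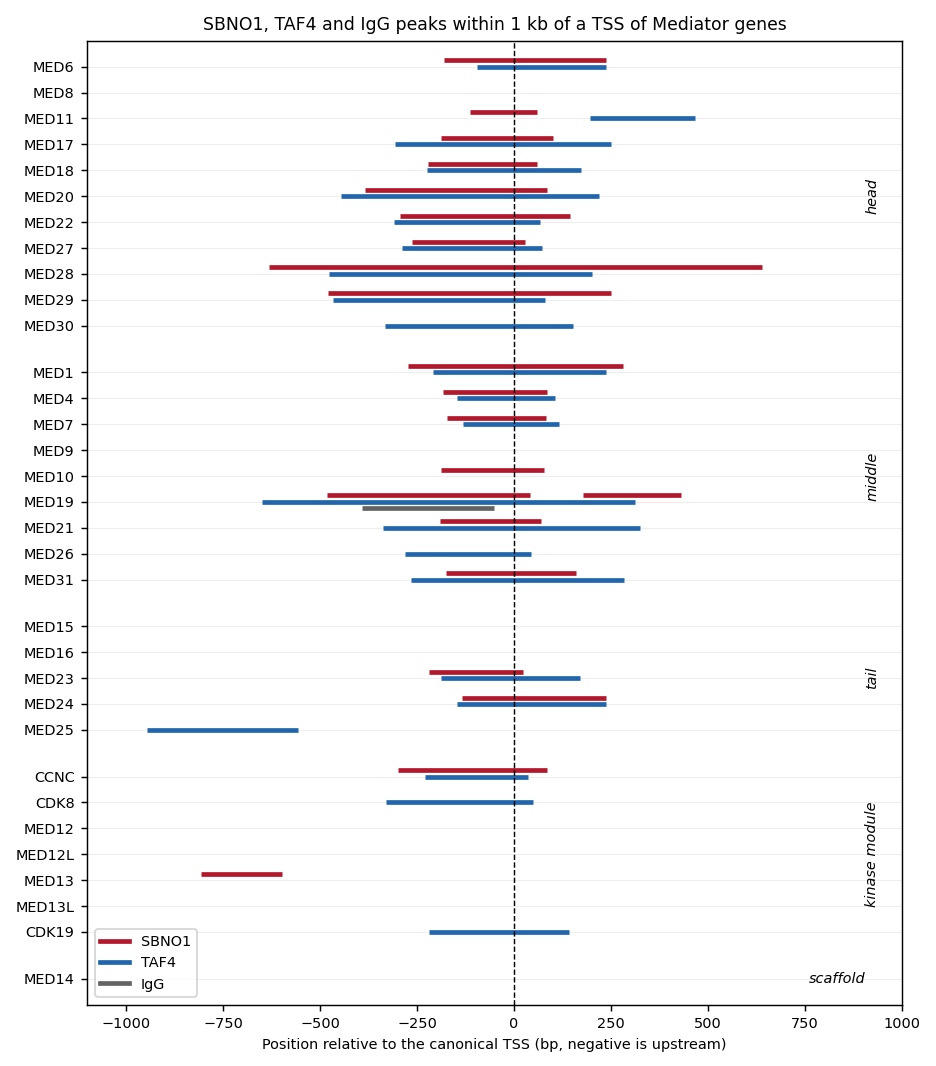
Extent of each SBNO1, TAF4 and IgG promoter peak relative to the canonical TSS of the gene (x axis in bp, negative upstream), with 1 row per member, ordered by module. Most bars cross the TSS, and the exceptions are the TAF4 peaks of MED11 and MED25, the SBNO1 peak of MED13, the second SBNO1 peak of MED19 and the IgG peak of MED19.

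**Figure D3:**
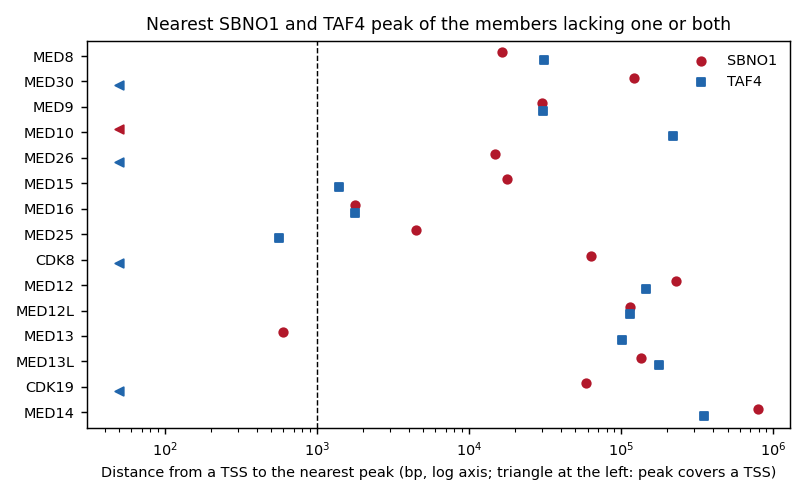
Distance from a TSS to the nearest SBNO1 (circles) and TAF4 (squares) peak for the 15 members lacking one or both promoter peaks (log axis in bp, triangles at the left for peaks that cover a TSS, dashed line at 1 kb). The farthest values are those of MED14, with 798670 bp for SBNO1 and 348742 bp for TAF4.

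Next, the position of the peaks was examined. Of the 21 SBNO1 promoter peaks of members, 19 (90.5%) covered a TSS, compared with 80.6% of the 4791 SBNO1 promoter peaks in all. Of the 23 TAF4 peaks, 21 (91.3%) covered a TSS, compared with 85.8% of 6042. Median centre positions were -46 bp (SBNO1) and -39 bp (TAF4), beside -65 bp and -56 bp over all genes. Minus means upstream of the TSS. The centre was upstream in 15 SBNO1 and 16 TAF4 peaks of members, and the shares over all genes were not counted. Most peaks of members were narrow. The median width was 293 bp for SBNO1 (175 to 1273 bp), below the 420 bp of all SBNO1 promoter peaks, and 386 bp for TAF4 (250 to 962 bp), beside 418 bp. The score is a whole number with a cap of 1000 and was used only to rank peaks within a list. It was at the cap in 47.6% of SBNO1 peaks of members, beside 32.2% of all SBNO1 promoter peaks, and in 43.5% of TAF4 peaks, beside 50.1%.

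**Figure D4:**
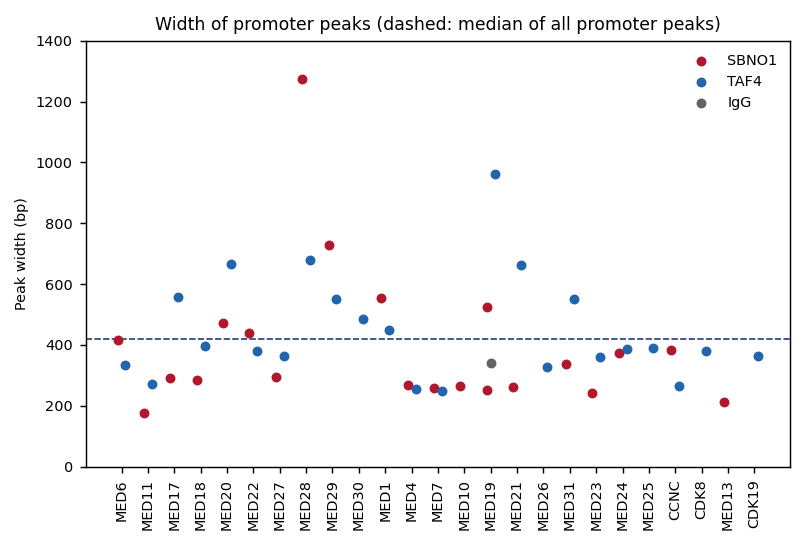
Width of each promoter peak (y axis in bp) for the 25 members with a peak, with SBNO1, TAF4 and IgG as points and the medians of all promoter peaks as dashed lines (420 bp for SBNO1 and 418 bp for TAF4). MED28 (1273 bp, SBNO1) and MED19 (962 bp, TAF4) stand above the others.

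At most members with both peaks, the SBNO1 and TAF4 peaks overlapped. Of the 21 SBNO1 peaks, 18 (85.7%) overlapped a TAF4 peak by at least 1 bp, beside 83.8% of all SBNO1 promoter peaks. Among peaks with a score at or above the median of their list, 7 of 14 did. The share of all SBNO1 promoter peaks at this limit was not counted, so this value has no comparison. The overlap had a median of 313 bp, beside 356 bp over all genes, and the centres of the overlapping peaks were a median of 40.5 bp apart, beside 56 bp over all genes. In 8 of these 18 pairs the SBNO1 peak lay entirely inside the TAF4 peak, as at MED17 and MED27, and in 5 the TAF4 peak lay inside the SBNO1 peak, as at MED6 and CCNC. TAF4 was the wider in 10 pairs (55.6%), beside 57.7% over all genes. The SBNO1 centre was the more upstream in 13 of the 18 pairs, and the share over all genes was not counted. Of the 23 members with TAF4, 18 (78.3%) also had SBNO1, beside 70.9% over all genes.

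Several of these promoter peaks were in reach of a further gene, so that they cannot be ascribed to the Mediator gene alone. This held for 9 of the 25 members with a peak (36.0%), beside 32.1% of all genes with an SBNO1 or TAF4 peak. MED22 shared its peaks with RPL7A, a ribosomal protein gene on the opposite strand whose TSS was 87 bp away. Distances are given between the closest annotated TSS of both genes, followed by the distance between canonical TSS where it differs. MED29 shared its peaks with PAF1, a subunit of an elongation complex, at 169 bp (canonical 272 bp). For MED17 and TAF1D, a subunit of the RNA polymerase I factor SL1, the closest TSS were 10 bp apart and the canonical ones 42787 bp. Other neighbours included BYSL at MED20 (360 bp), TMX2 at MED19 (378 bp) and C17orf100 at MED31 (128 bp, canonical 157 bp). ENPP3 at MED23 (219 bp), HAVCR2 at MED7 (4 bp) and FUZ at MED25 (913 bp) were in reach only through alternative TSS, and their canonical TSS lay 9060, 33821 and 4997 bp from that of the member. When each peak was given only to the gene with the nearest TSS, 18 members kept SBNO1 and 19 kept TAF4. Under this rule 21.8% of all genes had SBNO1 and 27.2% TAF4, compared with 25.7% and 31.9% when every gene in reach was counted. MED7 and MED22 then lost both calls, MED25 and MED29 lost TAF4, and the IgG peak of MED19 fell to its neighbour.

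Finally, the consensus sequences were counted in the 200 bp around the centre of each promoter peak. In the SBNO1 list, the ETS consensus was present in 10 of 21 member windows (47.6%), beside 25.0% of 4791 windows over all genes. Those 10 windows belonged to MED6, MED11, MED17, MED18, MED20, MED22, MED28, MED7, MED31 and CCNC. The YY1 consensus was present in 5 (23.8%), at MED1, MED6, MED13, MED18 and MED28, beside 4.42%. SP/KLF was present in 8 (38.1%), beside 53.4%, and NFY in 8 (38.1%), beside 32.7%. In the TAF4 list ETS was present in 8 of 23 windows (34.8%), beside 24.6%, YY1 in 2 (8.70%), beside 4.62%, and SP/KLF in 12 (52.2%), beside 59.6%. The median content of G and C was 58.0% in SBNO1 and 60.0% in TAF4 windows of members, beside 62.5% and 64.5%. The windows of both lists overlap at most members, so their counts are not independent, and with 21 and 23 windows a single member moves a share by several percentage points.

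**Figure D5:**
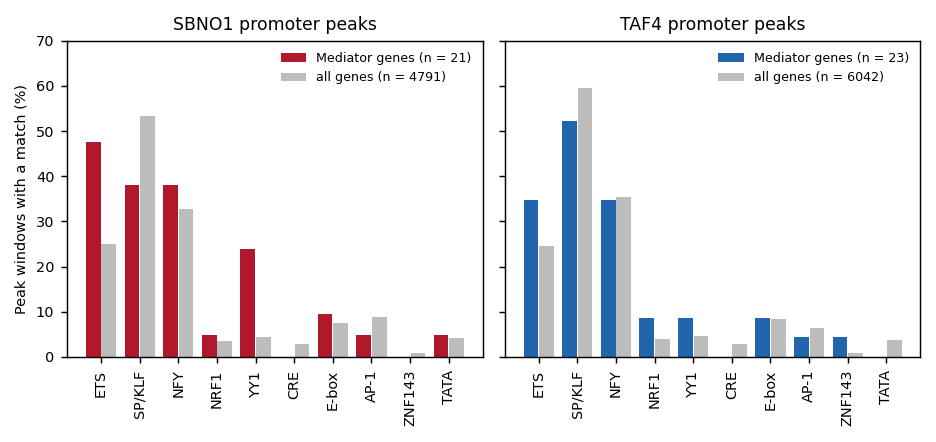
Share of the 200 bp windows at promoter peak centres with an exact match to each of 10 consensus sequences (y axis, percent), for Mediator genes (coloured bars) and for all protein-coding genes (grey bars), in the SBNO1 list (left) and the TAF4 list (right). ETS (47.6% beside 25.0%) and YY1 (23.8% beside 4.42%) are higher and SP/KLF (38.1% beside 53.4%) is lower at SBNO1 peaks of members.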

How the data were processed

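ChIP-seq libraries of HuCCT1 cells for SBNO1, TAF4 and IgG were analysed, 1 per antibody. According to the study's methods, chromatin was crosslinked and prepared with an enzymatic kit plus sonication, immunoprecipitates of several biological replicates were pooled per antibody, and single-end reads, after trimming by ktrim, were aligned to GRCh38 with bowtie2. The methods name normR as the peak caller. The submitters' processing notes list Bowtie2 2.5.4 and Genrich 0.6.1, so the caller of the deposited lists is not certain. The handling of duplicates and the use of IgG in the calls are not given in the sources used here. Replicate pooling removes any measure of biological spread. The deposited lists give position, name and a score set by the authors, a whole number capped at 1000 whose scaling is not stated. They hold no signal, summit or read number, so peak centres were used and depth is unknown.

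TSS came from protein-coding transcripts of GENCODE 44 (78567 sites of 19689 genes, without the mitochondrial genome). Distances ran from the nearest peak edge, peaks were shared at 1 bp of overlap, and coordinates are 1-based. Consensus sequences were matched exactly on both strands. They were counted in windows at peak centres, not in promoters as planned, because the promoter table held only 25 of the 33 members. Counts and shares are descriptions beside the same over all protein-coding genes, without p-values. Members, lists and consensus sequences were chosen with earlier results of these data known. Members were named by rule: all by module, with values for those with an IgG peak, with only SBNO1 or only TAF4, with neither, with the 3 widest peaks of either list, and for paralogs. Values of further members and the printed sequences were chosen after their values were seen. On simulated peaks, planted either inside the 1 kb limit or far outside it, 400 of 400 planted genes were recovered with 0 false. That is a check of the code and not of the deposited peaks. Python 3.11.15, pysam 0.24.0 and matplotlib 3.10.9 were used. Alternatives were other distances, TSS sets, assignment rules, score limits, overlap rules, module assignments and removal of peaks overlapping IgG.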

Additional observations from a re-analysis of the deposited data

How the results depend on the processing

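No paired analysis was possible because there was only 1 list per antibody, and no replicate could be left out. Of 45 values recomputed under another setting, 32 stayed within 1.5 times the reported count. With limits of 500 bp or 3 kb, the peak centre, 1 TSS per gene, all transcripts or removal of peaks overlapping IgG, the members with SBNO1 numbered 19 to 21 and those with TAF4 22 to 25. Under these settings the shares of all genes ran from 23.3% to 28.4% for SBNO1 and from 30.0% to 33.4% for TAF4. The score limits moved the counts most. At or above the median score of each list, 13 members had SBNO1, 13 TAF4, 6 both and 0 IgG. Of all genes, 13.1%, 19.6%, 9.21% and 0.350% did, respectively. At this limit, 7 of 14 SBNO1 promoter peaks of members overlapped a TAF4 peak. At the cap, 10 had SBNO1, 10 TAF4, 4 both and 0 IgG, beside 9.14%, 17.3%, 6.22% and 0.117% of all genes. With the nearest gene only, 0 members had an IgG peak, beside 1.16% of all genes. With MED27 to MED30 in the tail, the tail held 5 genes with SBNO1 and 7 with TAF4, and the head 6 with TAF4, since the genes themselves change module. With a reciprocal overlap of 50%, 16 of 21 SBNO1 peaks were shared. The share of all SBNO1 promoter peaks that overlapped TAF4 was counted neither under this rule nor at the median score. Depth is unknown, so a gene without a listed peak may have had signal below the threshold of the caller.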

Other observations

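Outside the promoters, peaks inside the members were few. Within the genes, SBNO1 had 6 peaks (2.78 per Mb of gene, beside 3.83 over all protein-coding genes) at MED12L, MED15, MED16 and MED27. TAF4 had 3 (1.39 per Mb, beside 2.07) at MED12L, MED15 and MED16, and IgG had 0, beside 0.208 per Mb. Only MED16 and MED12L held overlapping SBNO1 and TAF4 peaks inside the gene. Downstream of MED29, 5 SBNO1 and 4 TAF4 peaks lay within 10 kb of the gene end, among them peaks at a TSS of ZFP36, an mRNA decay factor. An IgG peak in the same stretch (731 bp, score 457) overlapped the SBNO1 and the TAF4 peak farthest from MED29.

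Other genes of the polymerase II machinery were counted in the same way, beside 25.7% (SBNO1), 31.9% (TAF4) and 1.41% (IgG) of all protein-coding genes. Of 12 subunits of the polymerase, 7 had an SBNO1 and 7 a TAF4 promoter peak (58.3% each). POLR2A, the largest subunit, was among those with both. Of 31 genes for TFIID and the general transcription factors, 18 had SBNO1 (58.1%) and 23 TAF4 (74.2%), and CCNH, the cyclin of the TFIIH kinase, had an IgG peak. TAF4 itself had neither. Of 25 pausing and elongation factors, 16 had SBNO1 (64.0%) and 19 TAF4 (76.0%). The Mediator genes, with 60.6% and 69.7%, lay between the lowest and the highest of these lists for either protein, and the differences were not tested.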
